A study of Mus musculus with 2 samples.

Results

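The 9 genes described here are genes whose transcription is known to respond to glucocorticoid, the stress hormone, and the gene of its receptor: Fkbp5, Tsc22d3, Per1, Zbtb16, Sgk1, Klf9, Mt1, Mt2 and Nr3c1. They were chosen by name for this known response, out of 32285 genes listed. Their UMIs (unique molecules of RNA counted after capture) were read in single cells of the enthesis of the Achilles tendon, the place where the tendon joins the heel bone, of SKG mice. SKG mice carry a mutation of the T cell signalling gene Zap70 and are prone to autoimmune arthritis and enthesitis. The groups were non-tail suspension and tail suspension, in which the mouse is held by its tail so that the hind limbs bear no weight. Each group was 1 library, and both groups share the strain. The number of animals in a library, their age and sex, whether arthritis was induced, how long the suspension lasted, the hour of dissection and any hormone measurement are not given in the sources used here. The question put to the 9 genes was whether a stress hormone signature differed with tail suspension in all cell types.

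Glucocorticoid enters the cell and binds its receptor, the product of Nr3c1, which waits in the cytoplasm bound to heat shock chaperones. The bound receptor moves to the nucleus, binds DNA at paired short elements and raises or lowers nearby genes. Fkbp5, Tsc22d3, Per1, Zbtb16, Sgk1 and Klf9 are among the genes it raises in many tissues. Mt1 and Mt2 are raised by glucocorticoid too, and also by zinc through the metal-sensing factor Mtf1 and by inflammatory cytokines. Per1 follows the daily clock and Sgk1 follows cell volume, so no gene of the set reports the hormone alone.

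Promoter sequences are shown for 4 of the genes whose promoters held a searched element. They are up to 250 bases before a RefSeq transcript start on GRCm38.p6, 5′ to 3′, without bases of annotated exons. RefSeq promoter entries were searched for 7 of the 9 genes, in 15 entries. Zbtb16 had no entry, and Nr3c1 was left out of the search. Capitals mark metal response element cores (TGCACNC or TGCGCNC) in Mt2 and Mt1, the paired glucocorticoid element (AGAACA, then any 3 bases, then TGTTCT) and the E-box CACGTG in Sgk1, and the E-box in Per1, on either strand.
Mt2, chr8:94172368-94172617, plus strand: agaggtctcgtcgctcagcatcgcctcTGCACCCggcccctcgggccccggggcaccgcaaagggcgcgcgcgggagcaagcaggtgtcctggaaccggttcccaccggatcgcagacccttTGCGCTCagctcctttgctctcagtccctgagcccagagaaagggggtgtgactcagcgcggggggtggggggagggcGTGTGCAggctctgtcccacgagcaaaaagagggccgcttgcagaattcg
Mt1, chr8:94178839-94179081, plus strand: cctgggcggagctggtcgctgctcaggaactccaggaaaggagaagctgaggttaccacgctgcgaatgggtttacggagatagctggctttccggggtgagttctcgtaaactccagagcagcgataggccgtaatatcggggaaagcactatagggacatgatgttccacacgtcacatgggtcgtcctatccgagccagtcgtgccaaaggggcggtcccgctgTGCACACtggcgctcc
Sgk1, chr10:21993640-21993889, plus strand: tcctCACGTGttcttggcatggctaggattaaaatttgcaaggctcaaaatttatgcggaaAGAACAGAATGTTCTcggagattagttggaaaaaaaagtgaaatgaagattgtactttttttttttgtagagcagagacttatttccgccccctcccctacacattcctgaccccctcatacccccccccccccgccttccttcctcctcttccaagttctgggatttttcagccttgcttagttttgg
Per1, chr11:69098699-69098947, plus strand: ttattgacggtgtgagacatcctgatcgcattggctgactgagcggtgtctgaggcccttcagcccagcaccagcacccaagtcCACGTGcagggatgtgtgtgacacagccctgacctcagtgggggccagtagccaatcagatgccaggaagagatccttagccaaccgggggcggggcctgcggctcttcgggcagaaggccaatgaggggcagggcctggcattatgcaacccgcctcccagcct
The Mt2 window held 3 metal response cores and the Mt1 window held 1, as did another Per1 entry that is not shown. Of 32851 promoters of 250 bases, 21.4% hold at least 1 such core and 1.26% hold at least 3. The paired glucocorticoid element stood in 1 of the 15 entries, at the Sgk1 start shown, and in 3 of the 32851 promoters (0.009%). The E-box stood in 3 of the 15 entries, those of Sgk1 and Per1 and one of Fkbp5, against 6.02% of promoters. A match of letters is a description of the window and not a binding site.

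The 2 libraries held 11430 and 15545 barcodes, and 10814 and 13991 cells with 118098425 and 156580161 UMIs were kept (non-tail suspension first, here and below). Their median depths were 4649 and 8362 UMIs. The libraries shared 47 barcode sequences. The cells formed 31 clusters, of which 26 were named from marker genes, and 10 classes had at least 100 cells in each library and were compared. Levels are in CPM, which scales a gene's UMIs to 1000000 UMIs of the class in its library. The difference is the log2 ratio of CPM with tail suspension over CPM without, so that values above 0 are higher with tail suspension. With 1 library in each group there was no replicate error and no test, and every interval is an exact 95% interval that covers counting error only. A pair of gene and class with at least 20 UMIs counts as measured. It counts as past the fold when the ratio is at least 2-fold with its interval on the same side of 0.

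The named classes carried their markers in both libraries, but several drew their cells from different clusters. Neutrophil-like cells (5137 and 960) lay in clusters 4, 5 and 6 without suspension and mainly in cluster 7 with it. Macrophage-like cells (1926 and 2667) lay mainly in cluster 12 without suspension and in clusters 11 and 15 with it. Tenocyte-like cells, the resident cells of tendon (1013 and 1734), lay mainly in cluster 0 without and in clusters 3 and 21 with suspension. Fibroblast-like cells (317 and 3475) and T cell-like cells (606 and 941) drew on the same clusters in both libraries. Monocyte-like cells (340 and 708) and B cell-like cells (102 and 333) were a single cluster each, so this comparison says nothing of their make-up. Clusters 10, 19 and 26 stayed unnamed. Cluster 10 was led by the neutrophil granule genes Camp, Ngp and Ltf (159 and 461 cells), and cluster 26 by Cxcl5, Timp1 and Prg4 (124 and 417 cells). Cluster 19 (153 and 185 cells) held bone-resorbing gene Ctsk at 7938 and 148 CPM, so its cells were not alike in the 2 libraries.

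Over all kept cells of a library together, 3 of the 9 genes were past the fold upward (Mt1, Mt2 and Zbtb16), where 12.4% of all genes lay, and 1 downward (Per1), where 7.06% lay. Those sums follow the mix of classes as well as the cells, so the classes were compared one by one. Over 9 genes and 10 classes, 86 of 90 pairs were measured, and 63 were higher and 23 lower with tail suspension. Past the 2-fold line there were 26 higher pairs, 30.2% of those measured, where 9.62% of all 112464 gene and class pairs lay past it. There were 4 lower pairs, 4.65%, where 6.62% of all pairs lay past it. The metallothioneins Mt1 and Mt2 gave 18 of the 26 higher pairs. Without them 8 of 66 pairs (12.1%) were past the fold upward and 4 (6.06%) downward, shares near those of all genes. The 9 genes therefore did not move as 1 block: Mt1 and Mt2 were higher in each of the 10 classes, Per1 was lower in 9 of them, and Nr3c1 was split 5 and 5. Without cluster 19, 23 of 78 measured pairs were past the fold upward (29.5%) and 4 downward (5.13%). The share of all pairs was not recomputed for the remaining classes. In cluster 19 itself 19.4% of all genes lay past the fold upward and 8.80% downward.

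**Figure D1:**
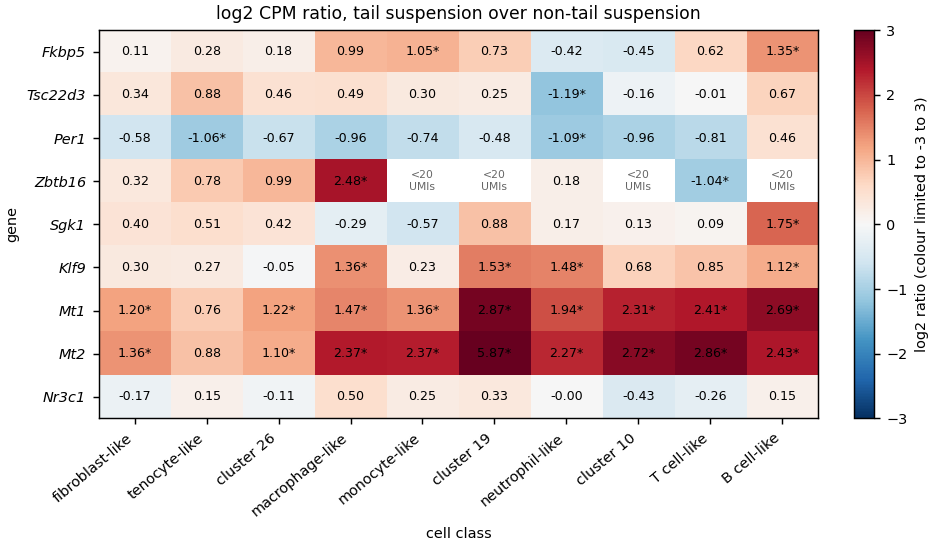
Each cell of the map gives the log2 ratio of CPM with tail suspension over CPM without it for 1 gene (rows) in 1 of the 10 compared classes (columns). Red is higher with tail suspension, blue is lower, and an asterisk marks a ratio of at least 2-fold with its counting interval off 0. The Mt1 and Mt2 rows are red throughout, and the Per1 row is blue outside B cell-like cells.

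By class, B cell-like cells had the most genes past the fold, 5 of 8 measured upward, where 9.08% of all genes lay there. All 8 were above 0, with a median log2 ratio of 1.24. In those cells 7 plasma cell genes summed to 35459 and 8228 CPM, with Ighg2b at 0 without suspension, and their part in the ratios was not tested. Of the 5 genes, Fkbp5, Sgk1 and Klf9 rested on 13, 23 and 22 UMIs without suspension. RNA leaked from other cells, estimated from Prg4 as described below, would equal 75.8% of the difference for Mt1, 78.0% for Mt2, 79.0% for Sgk1, 101.3% for Klf9 and 14.1% for Fkbp5. Estimated from Col1a1, the first 4 were 24.7%, 27.0%, -36.2% and -6.92%. Macrophage-like cells had 4 of 9 past the fold upward (15.3% of all genes), monocyte-like cells 3 of 8 (6.91%), cluster 19 had 3 of 8 (19.4%), and neutrophil-like cells 3 of 9 (14.0%). Fibroblast-like cells had 2 of 9 (3.49%), T cell-like cells 2 of 9 (6.58%), cluster 10 had 2 of 8 (4.50%) and cluster 26 had 2 of 9 (6.23%). Tenocyte-like cells had 0 of 9 past the fold upward (10.1%), though 8 of 9 were above 0. With other processing settings the highest log2 ratios there were 1.19 for Mt1, 1.32 for Mt2, 1.54 for Zbtb16 and 1.78 for Tsc22d3. Downward, neutrophil-like cells had 2 genes (9.16% of all genes), tenocyte-like cells 1 (5.74%) and T cell-like cells 1 (4.48%). The other 7 classes had 0 downward, where the share of all genes was 16.4% in B cell-like, 7.65% in cluster 10, 8.80% in cluster 19, 5.10% in cluster 26, 5.97% in fibroblast-like, 4.13% in macrophage-like and 3.35% in monocyte-like cells. The shift of all genes in a class, by median-of-ratios scaling, ran from -0.23 in cluster 10 to 0.28 in macrophage-like cells.

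The metallothioneins bind zinc and copper and take up oxidants, and their genes lie side by side on chromosome 8 (GRCm38, Mt2 at 94172664 to 94173568 and Mt1 at 94179082 to 94180327). Both were higher with tail suspension in each of the 10 classes, past the fold in 9 of 10 for either gene. In fibroblast-like cells Mt1 was at 5740.4 CPM without and 13202 CPM with tail suspension, a log2 ratio of 1.20 (1.18 to 1.22) that was 0.96 at Leiden resolution 2.0 and 0.86 when the libraries were clustered separately. In tenocyte-like cells it was at 6159.9 and 10402 CPM, the smallest ratio of the 10 at 0.76 (0.75 to 0.76). With other processing settings that ratio ran from 0.48 to 1.19, on both sides of 2-fold. Fibroblast-like, tenocyte-like and cluster 26 cells held the 3 highest Mt1 levels in both libraries, with the 3 smallest ratios. In macrophage-like cells Mt1 was at 791 and 2188 CPM (log2 1.47, 1.44 to 1.49), in monocyte-like cells at 667 and 1706 CPM and in cluster 26 at 3677 and 8538 CPM. In T cell-like cells it was at 218 and 1155 CPM (log2 2.41, 2.30 to 2.51) and in B cell-like cells at 181 and 1172 CPM (log2 2.69, 2.43 to 2.96). In neutrophil-like cells it was at 319 and 1226 CPM, in cluster 10 at 112 and 556 CPM and in cluster 19 at 623 and 4558 CPM. The 10 values with tail suspension each lay above the value of the same class without it, and no pair of intervals overlapped.

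Mt2 was highest in the same 3 classes and had a larger ratio than Mt1 in 8 of the 10 classes. It was at 2292 CPM without and 5869 CPM with tail suspension in fibroblast-like cells (log2 1.36, 1.33 to 1.39) and at 2461 and 4529.99 CPM in tenocyte-like cells (log2 0.88, 0.87 to 0.89). Among myeloid cells, macrophage-like ones held Mt2 at 94.2 and 488 CPM, monocyte-like ones at 52.4 and 270.2 CPM and neutrophil-like ones at 117 and 565 CPM, with log2 ratios of 2.37, 2.37 and 2.27. In T cell-like cells it was at 57.5 and 418 CPM and in B cell-like cells at 92.8 and 500.1 CPM. The largest ratio of any gene here was Mt2 in cluster 19, at 43.4 and 2542 CPM (log2 5.87, 5.67 to 6.08), the cluster whose cells were not alike in the 2 libraries. An antisense gene, Gm45774, overlaps Mt2. It held 39 and 82 UMIs over all kept cells against 157323 and 568363 of Mt2. Composition may be held closer within single named clusters, where a class has more than 1. Of those with at least 50 cells in each library, 18 of 18 had Mt1 and Mt2 above 0. Mt1 ran from 0.46 to 3.06 there and Mt2 from 0.54 to 3.44. The unnamed clusters are not among these 18, nor, among others, are clusters 4 (2210 and 19 cells) and 21 (43 and 620 cells). Some of the 18, such as the monocyte-like and B cell-like clusters, are whole classes, so their values are the class values again. Cells of 1 cluster could still differ between libraries: in cluster 7, markers of immature neutrophils summed to 8909 and 4034 CPM.

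Free RNA, which leaks from broken cells and is captured with another cell, moved with this result. Prg4 is made by lining fibroblasts and should be absent from lymphocytes, yet T cell-like cells held it at 85.5 and 1425 CPM, which is 3.14% and 7.03% of the level in the pooled library. If every immune class carried the library's Mt1 at its own Prg4 share, this would equal 53.7% of the Mt1 difference in T cell-like cells, 75.8% in B cell-like cells, 69.2% in neutrophil-like cells and 64.5% in cluster 10. In macrophage-like cells it would equal 20.4%, in monocyte-like cells 26.3% and in cluster 19 14.0%. After taking that part away, the log2 ratio of Mt1 was 2.26 in T cell-like, 2.63 in B cell-like, 1.72 in neutrophil-like and 1.34 in macrophage-like cells. The result of the subtraction depends on the marker. At the share given by Col1a1, a collagen gene of stromal cells, the part of the Mt1 difference was 61.5% in T cell-like, 83.4% in neutrophil-like, 77.6% in cluster 10 and 22.7% in macrophage-like cells, but 24.7% in B cell-like cells, whose Col1a1 share was 13.7% and 8.06%. The Mt1 ratio left was then 1.79 in T cell-like and 1.30 in macrophage-like cells, and 0.87 in neutrophil-like cells, short of 2-fold. In B cell-like cells this share exceeded the Mt1 level without suspension, so no ratio could be given. The stromal classes, which held the most Mt1 and Mt2, were not part of either subtraction.

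**Figure D2:**
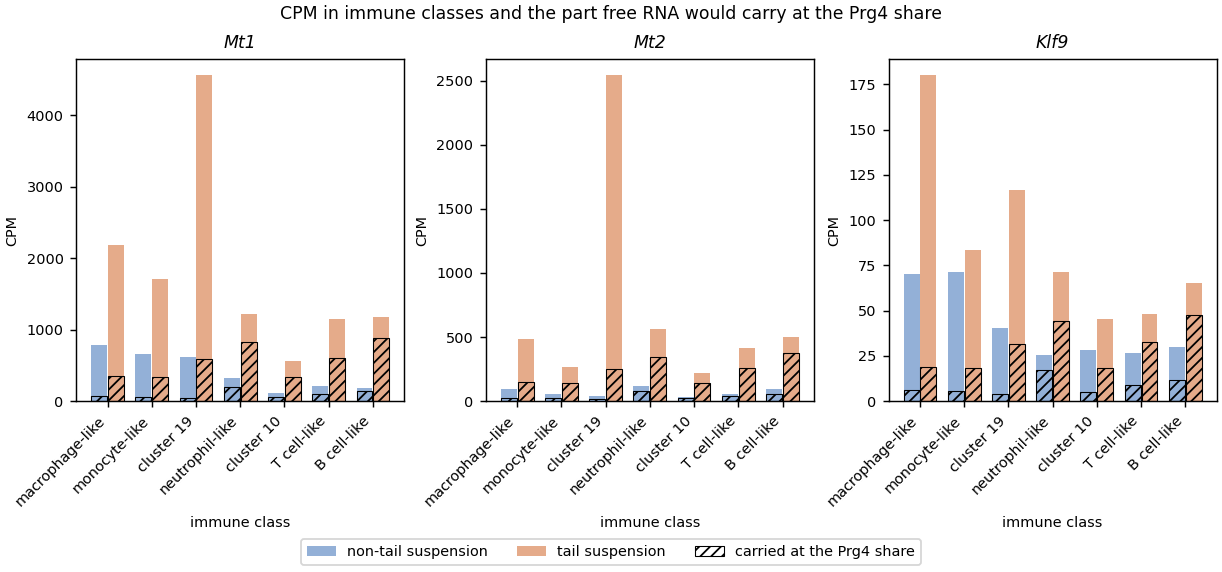
Bars give the CPM of Mt1, Mt2 and Klf9 (panels, each with its own axis from 0) in 7 immune classes, without (blue) and with (orange) tail suspension. Hatching marks the CPM that a class would hold if it carried the pooled library's RNA at its Prg4 share. The hatched part equals 53.7% of the Mt1 difference in T cell-like and 20.4% in macrophage-like cells.

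A list of 8 other genes tied to zinc was set beside the metallothioneins, though zinc is not known to raise each of them. Of these genes, 8 of 8 had a median ratio above 0 over the classes where they were measured. Of their 67 measured pairs with a class, 19 were past the fold upward and 3 downward, 28.4% and 4.48% against 9.62% and 6.62% of all pairs. Cluster 19, where 19.4% of all genes lay past the fold upward, gave 5 of the 19. The part of free RNA in these pairs was not tested. The zinc exporter Slc30a1, a standard target of the metal sensor, was above 0 in 10 of 10 classes with a median of 0.76. Mt3 had the highest median, 2.90, but at low levels, such as 0.91 and 7.16 CPM in tenocyte-like cells, and Mt4 followed with 2.09 over 4 classes, among them cluster 19 with 0.00 and 131 CPM and tenocyte-like cells with 0.08 and 0.87 CPM. Mtf1, the metal sensor itself, had a median of 0.12 and stood at 12.5 and 13.9 CPM in fibroblast-like cells. The zinc importer gene Slc39a10 had the lowest median, 0.06, with 16.3 and 10.6 CPM in fibroblast-like cells. The part of zinc in these values was not tested.

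Fkbp5 encodes a chaperone partner of the receptor that damps its own activation, and it is a widely used readout of the hormone. It was higher in 8 of 10 classes, with a median log2 ratio of 0.45. In monocyte-like cells it was at 36.2 CPM without and 74.6 CPM with tail suspension (log2 1.05, 0.78 to 1.32) and in macrophage-like cells at 37.8 and 74.8 CPM (log2 0.99, 0.88 to 1.10). In B cell-like cells it was at 17.7 and 45.4 CPM, from 13 and 46 UMIs, with a log2 ratio of 1.35 (0.44 to 2.37) that was 0.82 when the libraries were clustered separately. The monocyte-like ratio thus stood just past the 2-fold line and the macrophage-like one just short of it. In T cell-like cells it was at 31.2 and 48.00 CPM (log2 0.62, 0.31 to 0.94) and in cluster 19 at 26.5 and 43.9 CPM (log2 0.73, 0.38 to 1.08). In stromal cells the ratios were small: 40.8 and 44.1 CPM in fibroblast-like cells (log2 0.11, -0.13 to 0.37), 38.8 and 47.02 CPM in tenocyte-like cells (log2 0.28, 0.16 to 0.40) and 38.1 and 43.1 CPM in cluster 26. Pooled neutrophil-like cells had the reverse order, 41.6 and 31.1 CPM (log2 -0.42, -0.73 to -0.13), but the mean over clusters 5, 6 and 7 was 0.26. Cluster 10 held 23.3 and 17.1 CPM with an interval that held 0 (-0.97 to 0.09).

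Without suspension, the Fkbp5 levels of fibroblast-like, tenocyte-like, cluster 26, macrophage-like, monocyte-like and neutrophil-like cells lay between 36.2 and 41.6 CPM with intervals that overlapped. With suspension, monocyte-like and macrophage-like cells stood above the other 8 classes. Within macrophage-like clusters Fkbp5 was at 36.8 and 69.4 CPM in cluster 11, 36.98 and 58.01 CPM in cluster 12 and 59.5 and 90.9 CPM in cluster 15, higher with suspension in each. Over single named clusters it was above 0 in 16 of 18. Free RNA at the Prg4 share equalled 3.8% of the macrophage-like difference and 3.5% of the monocyte-like one. Median-of-ratios scaling, which removes the shift of all genes, gave 0.71 in macrophage-like and 0.98 in monocyte-like cells.

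**Figure D3:**
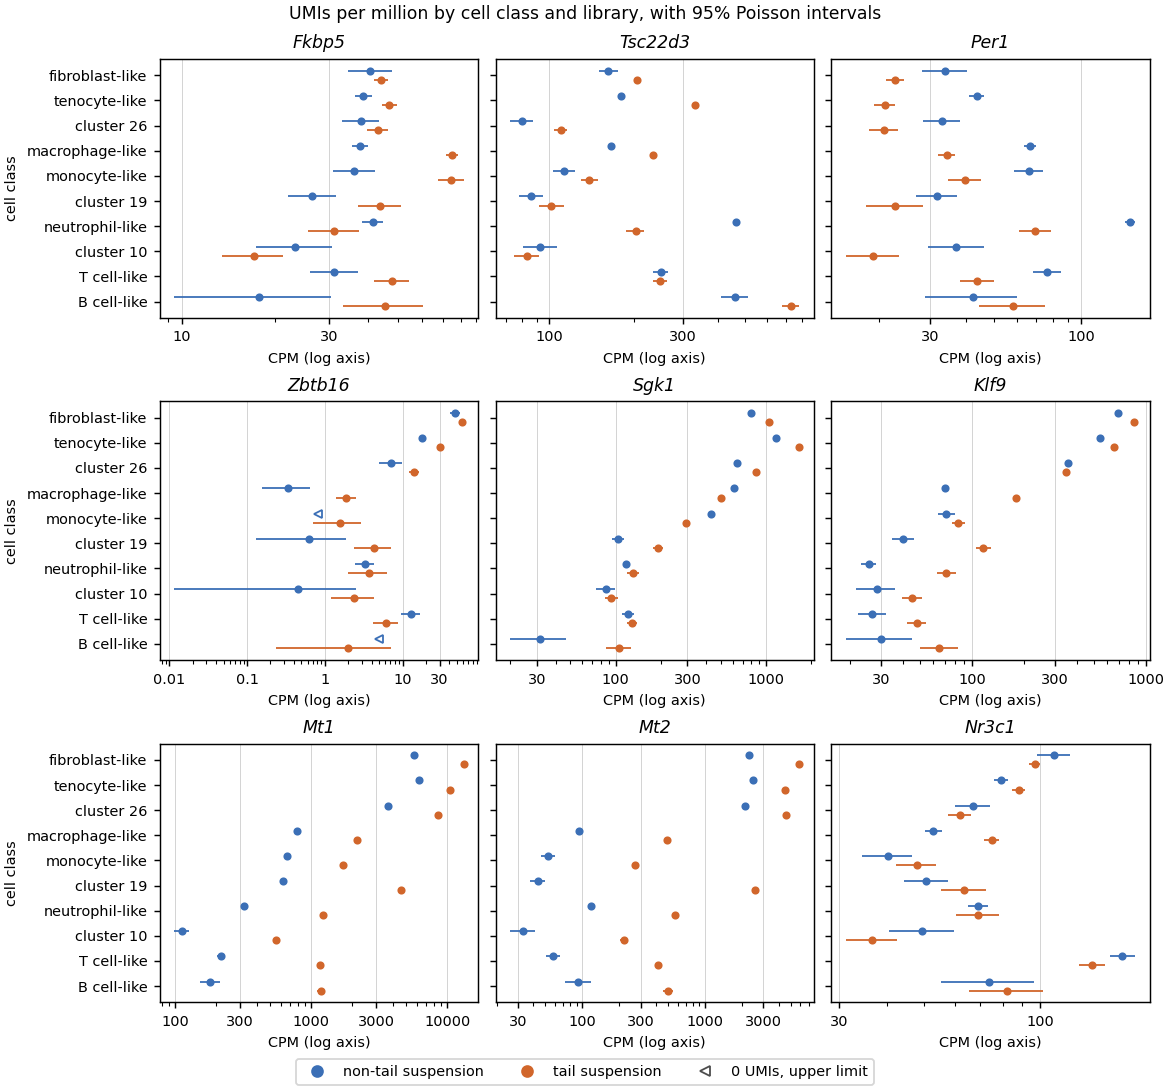
Points give the CPM (log axis, scaled separately for each gene) of the 9 genes in the 10 compared classes, without (blue) and with (orange) tail suspension. Lines are exact 95% Poisson intervals, often narrower than the point, and open triangles mark the upper limit of a class with 0 UMIs. The orange points of Mt1 and Mt2 lie to the right of the blue in each class, those of Per1 lie to the left outside B cell-like cells, and those of Nr3c1 stay near the blue.

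Tsc22d3 encodes the glucocorticoid-induced leucine zipper, which restrains inflammatory signalling in leukocytes. It was higher in 7 of 10 classes, with a median of 0.32, and past the fold in 1 class, downward. In neutrophil-like cells it was at 465 CPM without and 203 CPM with tail suspension, a log2 ratio of -1.19 (-1.31 to -1.08). In tenocyte-like cells it was at 181 and 333 CPM, the highest ratio of the 10 at 0.88 (0.83 to 0.93). That ratio ran from 0.38 with doublets kept to 1.78 at a minimum of 500 genes per cell, and was 0.46 in cluster 0 and 0.73 in cluster 3. B cell-like cells held the highest level with suspension, 459.8 and 729.9 CPM (log2 0.67, 0.48 to 0.86), and macrophage-like cells followed a like order with 167 and 234 CPM (log2 0.49, 0.44 to 0.55). In fibroblast-like cells it was at 163 and 206 CPM, in monocyte-like cells at 113 and 139 CPM, in cluster 26 at 79.6 and 109.7 CPM and in cluster 19 at 85.8 and 102 CPM. T cell-like cells held 249.9 and 248 CPM, with a log2 ratio of -0.01 (-0.13 to 0.11), so a difference was not detectable there at this depth. Cluster 10 held 92.7 and 82.98 CPM with an interval that held 0 (-0.41 to 0.09).

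Single clusters did not all share the direction of their class. In neutrophil-like cells Tsc22d3 was lower in each of the 3 clusters that could be set side by side, at 551 and 309 CPM in cluster 5, 446 and 267 CPM in cluster 6 and 260.4 and 189 CPM in cluster 7, with log2 ratios of -0.83, -0.74 and -0.46. The mean over these clusters was -0.68, which is short of 2-fold. In macrophage-like cells it was higher in cluster 11 (157 and 209.6 CPM) and lower in clusters 12 and 15 (159 and 126 CPM, and 377 and 315 CPM), and the mean over these clusters was -0.06, against 0.49 pooled. Markers of immature neutrophils, the granule genes among them, summed to 552 and 3389 CPM in neutrophil-like cells, with all 9 detected without suspension and 8 with it (Fcnb at 0). The neutrophil genes S100a8 and S100a9 summed to 132875 and 284795 CPM there, and with these and other abundant genes left out of the total the Tsc22d3 ratio was -0.85. Their part in the lower Tsc22d3 was not tested.

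**Figure D4:**
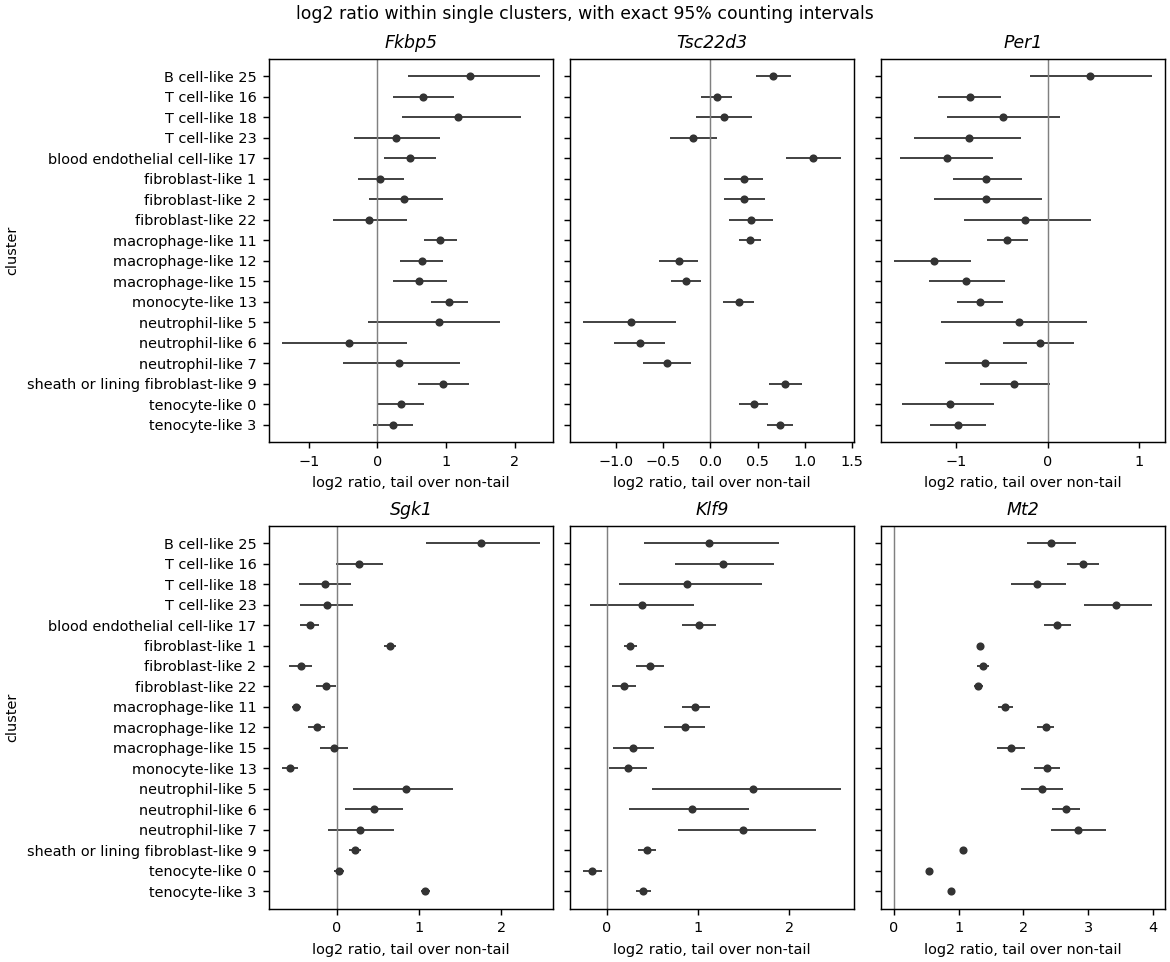
Points give the log2 ratio of CPM with tail suspension over CPM without it for 6 of the genes within 18 single named clusters. Each of these clusters had at least 50 cells in each library. Bars are exact 95% counting intervals, and a line marks 0. Mt2 lies above 0 in 18 of 18 clusters and Per1 below 0 in 17, while Sgk1 lies above 0 in 9 and below in 9.

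Per1 is a core gene of the daily clock that glucocorticoid raises within the hour, and it was the 1 member with a median ratio below 0. It was lower in 9 of 10 classes, with intervals below 0 in each of the 9 and a median log2 ratio of -0.77. In tenocyte-like cells it was at 43.5 CPM without and 20.9 CPM with tail suspension (log2 -1.06, -1.21 to -0.91) and in neutrophil-like cells at 148 and 69.6 CPM (log2 -1.09, -1.29 to -0.90), both past the fold. The tenocyte-like ratio was -0.58 in cells thinned to 1000 UMIs. Macrophage-like cells held 66.5 and 34.3 CPM (log2 -0.96, -1.08 to -0.84) and cluster 10 held 37.00 and 19.02 CPM. The lower level thus spanned stromal and immune cells alike. In T cell-like cells it was at 76.5 and 43.7 CPM, in monocyte-like cells at 66.1 and 39.6 CPM and in fibroblast-like cells at 33.7 and 22.6 CPM, with log2 ratios of -0.81, -0.74 and -0.58. Cluster 26 held 32.97 and 20.7 CPM, with a ratio of 0.33 in cells thinned to 2000 UMIs, and cluster 19 31.6 and 22.7 CPM. B cell-like cells were the exception, with 42.3 and 58.2 CPM from 31 and 59 UMIs and an interval that held 0 (-0.19 to 1.14). Within single named clusters Per1 was below 0 in 17 of 18, the B cell-like cluster being the other one. In the neutrophil-like clusters the ratios were nearer to 0 than in the pooled class, at -0.31 (-1.16 to 0.42), -0.09 (-0.48 to 0.29) and -0.69 (-1.13 to -0.23) in clusters 5, 6 and 7, a mean of -0.36. With abundant genes left out of the total, the pooled neutrophil-like ratio was -0.75.

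Per1 is also an immediate-early gene, raised by handling and digestion of tissue. The 19 immediate-early genes set beside it were detected in every compared class, and their summed level was lower with suspension in 7 of 10 classes and higher in 3. It was 13695 and 5823 CPM in neutrophil-like, 8351 and 4950.3 CPM in T cell-like and 19256 and 13546 CPM in tenocyte-like cells. Single genes of this list differed: Jund, a subunit of the AP-1 factor, was lower in 10 of 10 classes with a median of -1.08, and the cytokine signalling inhibitor gene Socs3 had a median of -0.91. Klf4, a zinc finger factor, was higher in 10 of 10 with a median of 0.70, and Hspa1b, an inducible heat shock protein gene, had a median of 0.93. The median over the 19 genes was -0.08, with 8 above 0 and 11 below. The part of digestion in the Per1 result was not tested.

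Of the 15 other clock genes, 11 had medians above 0 and 4 below, with a median of 0.47. The output factor gene Dbp, which follows the clock closely, had the lowest median, -1.05, with 122 and 26.4 CPM in fibroblast-like and 92.8 and 25.1 CPM in tenocyte-like cells. Hlf, of the same factor family, had the highest median, 1.60, with 26.4 and 39.96 CPM in fibroblast-like and 26.3 and 27.3 CPM in tenocyte-like cells. Npas2, a partner of the clock activator, had a median of 0.82 at a few CPM, and Bhlhe40, a clock repressor, had -0.16. Per2 was above 0 in 8 of 9 classes with a median of 0.53, the opposite direction to Per1. The hour at which each tissue was taken is not given, and hour and suspension cannot be told apart here.

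Zbtb16 encodes a zinc finger factor that glucocorticoid raises strongly in several tissues and that also programmes innate-like T cells. It was measured in 6 of 10 classes, 5 of them higher, with a median of 0.55. Fibroblast-like and tenocyte-like cells held the highest levels: 47.3 CPM without and 58.9 CPM with tail suspension in fibroblast-like cells (log2 0.32, 0.09 to 0.55), 17.97 and 30.8 CPM in tenocyte-like cells (log2 0.78, 0.61 to 0.94) and, in cluster 26, 7.10 and 14.1 CPM. In T cell-like cells it was lower, at 12.7 and 6.18 CPM from 52 and 30 UMIs (log2 -1.04, -1.73 to -0.36). In macrophage-like cells it was past the fold upward but near the detection limit, at 0.34 and 1.87 CPM from 9 and 48 UMIs (log2 2.48, 1.44 to 3.69), and free RNA at the Prg4 share equalled 52.3% of that difference. As a mean over macrophage-like clusters the ratio was 1.25. The T cell-like ratio was -0.61 in cells thinned to 2000 UMIs and -0.69 when the libraries were clustered separately, both short of 2-fold. Neutrophil-like cells held 3.27 and 3.71 CPM with an interval that held 0 (-0.82 to 1.08). In monocyte-like, B cell-like, cluster 10 and cluster 19 cells the UMIs were too few, with 0 in the monocyte-like and B cell-like cells of the non-tail suspension library (exact upper limits 0.82 and 5.03 CPM).

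Among T cell-like cells, 6.60% held a Zbtb16 UMI without suspension and 2.44% with it, at median depths of 5482 and 3854 UMIs. Neutrophil-like cells, which should lack the gene, gave 0.973% and 0.938% at medians of 2779 and 2961. Thinned to 2000 UMIs per cell, the T cell-like shares were 3.08% (95% Clopper-Pearson interval 1.84 to 4.83, 22 cells left out as shallower) and 1.09% (0.499 to 2.06, 114 left out). Markers of gamma-delta T cells, an innate-like kind, summed to 482 and 145 CPM in the same cells, with 9 of 9 detected in either library. In cluster 16, which held 385 and 549 of them, Zbtb16 was at 16.9 and 10.2 CPM and the gamma-delta markers at 731 and 238 CPM, Trdv4 being at 0 without suspension. The part of these cells in the lower Zbtb16 was not tested.

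Sgk1 encodes a kinase that controls ion transport and cell survival. It was higher in 8 of 10 classes with a median of 0.28, being lower in macrophage-like and monocyte-like cells. In tenocyte-like cells it was at 1162 CPM without and 1652 CPM with tail suspension (log2 0.51, 0.49 to 0.53), in fibroblast-like cells at 793 and 1049 CPM (log2 0.40, 0.35 to 0.46) and in cluster 26 at 644 and 863 CPM. In macrophage-like cells it was lower, at 611 and 499 CPM (log2 -0.29, -0.33 to -0.26), and in monocyte-like cells too, at 433 and 292 CPM (log2 -0.57, -0.66 to -0.47). Fkbp5 stood the other way in both of these classes. B cell-like cells were past the fold upward, at 31.4 and 106 CPM from 23 and 107 UMIs (log2 1.75, 1.09 to 2.47), where free RNA at the Prg4 share equalled 79.0% of the difference, the Col1a1 share -36.2% (the opposite direction), and the ratio in cells thinned to 1000 UMIs was 0.65. Cluster 19 held 104 and 192 CPM, and T cell-like cells 121 and 129 CPM, neutrophil-like cells 117 and 131 CPM and cluster 10 85.9 and 93.8 CPM stood close to equal. With free RNA at the Prg4 share subtracted those 3 ratios were -0.53, -0.59 and -0.30, and at the Col1a1 share -0.71, -1.03 and -0.44, so their sign turned. The stromal direction was not shared by every cluster: Sgk1 was at 865 and 1824 CPM in tenocyte-like cluster 3 and 833 and 1307 CPM in fibroblast-like cluster 1, but 1206 and 1231 CPM in tenocyte-like cluster 0 and 693 and 512 CPM in fibroblast-like cluster 2. The sign of these differences also turned with the cell filter. At a minimum of 500 genes per cell the Sgk1 ratio was -0.35 in tenocyte-like, 0.08 in macrophage-like and 0.01 in monocyte-like cells, and when the libraries were clustered separately it was -0.05 in fibroblast-like cells. The promoter with the paired glucocorticoid element printed above belongs to 1 of several Sgk1 starts, and these UMI counts do not tell the starts apart.

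Klf9 encodes a Krüppel-like factor raised by glucocorticoid and by thyroid hormone. It was higher in 9 of 10 classes with a median of 0.76, past the fold in 4. Macrophage-like cells held 70.02 CPM without and 179.99 CPM with tail suspension (log2 1.36, 1.28 to 1.44), and it was in neutrophil-like cells at 25.6 and 71.3 CPM (log2 1.48, 1.24 to 1.71) and in cluster 19 at 40.5 and 116 CPM (log2 1.53, 1.27 to 1.78). In B cell-like cells it was at 30.02 and 65.1 CPM and in T cell-like cells at 26.8 and 48.2 CPM. Stromal cells held the highest levels with small ratios, 694 and 855 CPM in fibroblast-like (log2 0.30, 0.24 to 0.36), 542 and 654 CPM in tenocyte-like (log2 0.27, 0.24 to 0.30) and 356 and 345 CPM in cluster 26. Monocyte-like cells held 71.2 and 83.7 CPM and cluster 10 28.3 and 45.4 CPM. Free RNA at the Prg4 share equalled 101.3% of the difference in B cell-like, 109.3% in T cell-like, 99.7% in monocyte-like and 58.8% in neutrophil-like cells, against 11.7% in macrophage-like cells. With it subtracted the T cell-like ratio was -0.17. The Col1a1 share gave -6.92% in B cell-like, 132.8% in T cell-like and 13.7% in macrophage-like cells, and left -0.60 in T cell-like, -0.01 in monocyte-like and 0.78 in neutrophil-like cells. The B cell-like part thus turned with the marker. The tenocyte-like ratio was -0.10 with doublets kept. Within macrophage-like clusters 11, 12 and 15, Klf9 had log2 ratios of 0.97, 0.85 and 0.29, a mean of 0.70 that is short of 2-fold, against 1.36 pooled. In B cell-like cells the ratio was -0.35 when cells were thinned to 1000 UMIs, and in cluster 10 it was -0.25 at 2000 UMIs. At 1000 UMIs those of neutrophil-like cells and cluster 19 were 0.94 and 0.97.

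Nr3c1, the receptor gene itself, had the narrowest range of ratios among the members. It was higher in 5 classes and lower in 5, with a median of 0.08 and a range from -0.43 in cluster 10 to 0.50 in macrophage-like cells. T cell-like cells held the highest level, 164 CPM without and 137 CPM with tail suspension (log2 -0.26, -0.42 to -0.10), and fibroblast-like cells came next with 109 and 96.7 CPM. Macrophage-like cells held 52.8 and 74.9 CPM, tenocyte-like cells 79.03 and 87.9 CPM and B cell-like cells 73.7 and 81.9 CPM. A difference was not detectable at this depth in neutrophil-like cells, 69.1 and 69.01 CPM (log2 -0.00, -0.21 to 0.20). Monocyte-like cells held 40.2 and 47.7 CPM, cluster 10 49.3 and 36.5 CPM, cluster 19 50.6 and 63.5 CPM and cluster 26 66.9 and 61.8 CPM. None of the 10 ratios was past the fold. When the libraries were clustered separately the ratio was 0.36 in fibroblast-like and -0.06 in tenocyte-like cells, the opposite signs to those above.

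By their medians, 5 of 10 genes of the receptor and chaperone list were above 0 and 5 below (Nr3c1 is 1 of the 10), with a median of 0.01. Of their 94 measured pairs with a class, 38 were above 0. Past the fold lay 2 pairs upward (2.13%) and 6 downward (6.38%), against 9.62% and 6.62% of all pairs. Hspa8, the constitutive heat shock chaperone that loads the receptor, was lower in 9 of 10 classes, such as 1621 and 1098 CPM in tenocyte-like cells, and its co-chaperone Dnajb1 was lower in 9 of 10 as well, with 134 and 72.1 CPM there. Ptges3, the p23 co-chaperone, was higher in 9 of 10, with 126 and 176 CPM in macrophage-like cells. Nr3c2, the mineralocorticoid receptor gene that also binds the hormone, had the highest median, 0.91, over 4 classes at 1.03 and 2.18 CPM in tenocyte-like cells. Hsd11b1, the enzyme that regenerates active hormone inside cells, had a median of -0.17, with 27.7 and 46.4 CPM in fibroblast-like and 42.1 and 25.8 CPM in T cell-like cells. H6pd, which supplies its cofactor, had -0.40, and the hormone exporter gene Abcb1a had 0.36.

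Of 30 other genes that glucocorticoid is known to raise, 28 were measured in at least 3 classes, 17 with a median above 0 and 11 below. Of their 254 measured pairs with a class, 47 were past the fold upward and 20 downward, 18.5% and 7.87% against 9.62% and 6.62% of all pairs, and the median over genes was 0.21. Cd163, the haemoglobin scavenger receptor of macrophages and a hormone-raised gene there, had the highest median, 3.21. That median is the cluster 26 value, a bound from 0.00 CPM without suspension, set to 3 UMIs, against 5.07 CPM with it. Fibroblast-like cells held Cd163 at 0.00 and 5.06 CPM and tenocyte-like cells at 1.14 and 4.98 CPM. The part of free RNA in such pairs, which are counted among the 47, was not tested. Cd163 was at 13.1 and 318 CPM in macrophage-like cells (log2 4.60). A set of 6 resident macrophage markers, Cd163 among them and picked with the values known, summed to 592 and 1518 CPM in those cells, with 6 of 6 detected in both libraries, and their part in the Cd163 value was not tested. Tgfbr3, a co-receptor of TGF-beta, had a median of 1.83, which is the monocyte-like value at 2.01 and 7.12 CPM. Its levels were far higher in fibroblast-like cells, 291 and 403 CPM (log2 0.47), and tenocyte-like cells, 190 and 285 CPM (log2 0.58). The part of free RNA in the classes with low Tgfbr3 was not tested. At the other end, the decoy receptor gene Il1r2 had a median of -0.99 and was at 2519 and 1256 CPM in neutrophil-like cells, while Nfkbia, whose product holds NF-kB in the cytoplasm, was below 0 in 10 of 10 classes with 8909 and 2925 CPM there. Dusp1, a phosphatase gene often used as a readout of the hormone, was lower in 8 of 10 with a median of -0.55, and Errfi1, an inhibitor of the EGF receptor, was higher in 10 of 10 with 0.74.

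Of 16 genes that the hormone is known to lower, 15 were measured in at least 3 classes, 7 with a median above 0 and 8 below, and the median over genes was -0.25. Of 141 measured pairs, 29 were past the fold upward and 30 downward, 20.6% and 21.3% against the same 9.62% and 6.62%. The cytokine gene Il6 was higher in 10 of 10 classes, with 287 and 1039 CPM in fibroblast-like cells. The monocyte attractant gene Ccl2 was higher in 10 of 10, with 372 and 1271 CPM in macrophage-like cells. The part of free RNA in the immune-class values of Il6 and Ccl2, some of them counted among the 29, was not tested. Il1b was lower in 9 of 10, with 9989 and 3149 CPM in neutrophil-like cells, and the chemokine gene Ccl3 was lower in 10 of 10, with 2877 and 845 CPM there. The list of raised genes thus had more pairs past the fold upward than downward, and the list of lowered genes about as many either way.

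**Figure D5:**
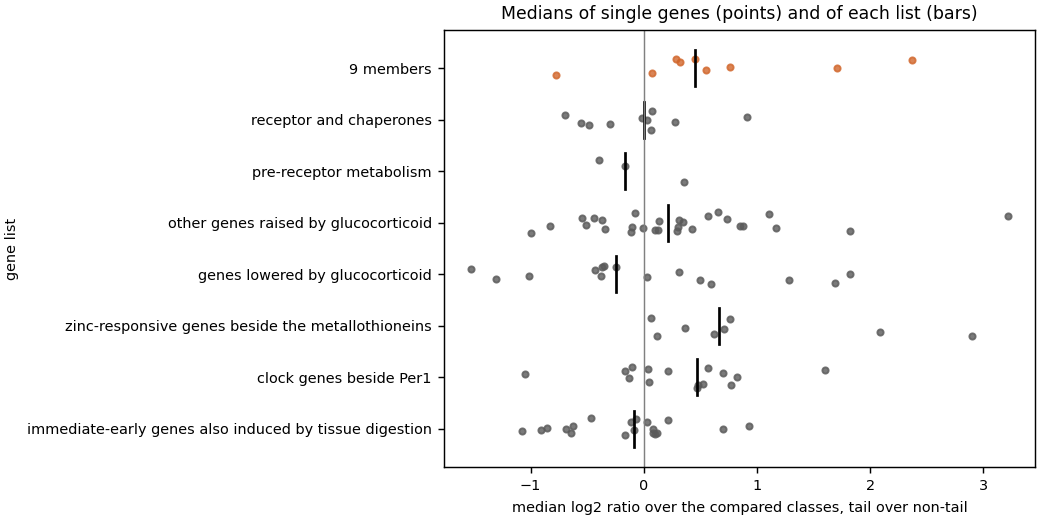
Each point is 1 gene and gives its median log2 ratio, with over without tail suspension, across the compared classes where it was measured. Rows are the 9 members and 7 lists of related genes, with points spread up and down within a row to keep them apart, and the bar marks the median of the row. The row labelled zinc-responsive, a list of genes tied to zinc, lies wholly above 0, while the rows of genes raised and lowered by glucocorticoid lie on both sides.

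Across the 20 values of 10 classes in 2 libraries, the members fell into patterns of level (Pearson r of log2(CPM + 10), given as a description, since the values share libraries, depth and free RNA). Mt1 and Mt2 had r = 0.94, Klf9 and Mt1 had 0.93, and Sgk1 and Klf9 had 0.89, the genes highest in stromal cells. Fkbp5 had 0.01 with Per1 and 0.18 with Tsc22d3. Tsc22d3 and Per1 had 0.47. Among all genes at 20 CPM or more on average, those most like Mt1 were Ccl2 (0.95), Rnd3 (0.94) and Dag1 (0.94), and those most like Mt2 were Cxcl14 (0.95), Clstn1 (0.95) and S100a16 (0.94). Fkbp5 was most like Zswim6 (0.87), Sec24b (0.85) and Crk (0.84), and Tsc22d3 most like Crebrf (0.93), Klhl24 (0.90) and Kmt2c (0.83). For Per1 they were Zfp622 (0.90), Pde4b (0.88) and Otud5 (0.87), for Sgk1 Cxcl1 (0.96), Dse (0.95) and Errfi1 (0.94), and for Klf9 Lima1 (0.97), Cpne8 (0.97) and Vasn (0.97). Zbtb16 was like Lysmd2 (0.96) and Myoc (0.95), and Nr3c1 most like Ndfip1 (0.86), Atxn1 (0.86) and Ablim1 (0.84).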

How the data were processed

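Single-cell libraries were made with the 10x Genomics droplet platform from enthesis digested with collagenase and depleted of dead cells, per the labels. The authors deposited raw UMI counts per gene and barcode, with Cell Ranger 5.0.1 and GRCm38 named in the submitters' processing notes. Whether the libraries were brought to equal depth is not given in the sources used here. Barcodes under 300 genes or over 20% mitochondrial UMIs were left out, and Scrublet (expected rate 0.8% per 1000 barcodes, a seed at which its threshold was found in both libraries) removed 133 (1.21%) and 492 (3.40%) doublets. These shares are under the expected 9.14% and 12.4%, so doublets may remain. Cells scaled to 10000 UMIs and log-transformed, 2000 variable genes without the 9 members, 30 principal components, 15 neighbours and Leiden resolution 1.0 gave the clusters (scanpy 1.11.5, without integration). A cluster took the class with most markers among its 10 leading genes, with at least 3 in its top 50. Ties and too few markers in 1 library left it unnamed, 2 checks added after seeing the data. Cells are not replicates, so UMIs were summed per class and library and no test was run. From each list the 2 genes with the highest and 2 with the lowest median ratio over at least 3 classes were named, besides Slc30a1, Per2, Dusp1 and Errfi1, picked after their values were seen. A 0 was set to 3 UMIs for a ratio. The likeness row took the 3 genes of highest r, without mitochondrial, ribosomal and predicted genes, and 1 of them is not reported here. Ratios and intervals were tested on simulated data. The members and lists were chosen with earlier results of these data known.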

Additional observations from a re-analysis of the deposited data

Results flagged for a closer look

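Tsc22d3 went opposite ways in different classes under the same contrast, with a log2 ratio of 0.88 in tenocyte-like cells and -1.19 in neutrophil-like cells, both with counting intervals off 0. Zbtb16 likewise had 2.48 in macrophage-like cells, at 0.34 and 1.87 CPM, and -1.04 in T cell-like cells, at 12.7 and 6.18 CPM. Each group was 1 library, so these differences between classes were not tested.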

How the results depend on the processing

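The number of pairs higher past the fold ran from 20 to 38 over the alternatives, against 26 of 86 measured pairs. The number above 0 ran from 51 to 82, against 63. Settings also differed in how many pairs were measured. The 38 came from the 1.5-fold line and the 82 from adding classes with at least 50 cells. Means over cells or clusters, and immune classes with free RNA subtracted, were counted by the fold alone, without an interval. The share of all genes past the fold was found for the main setting alone. The number of lower pairs past the fold, 4, was 1 when mitochondrial, ribosomal, haemoglobin and S100a8 and S100a9 genes were left out of the total, 2 with at least 1000 genes per cell, 2 at Leiden resolution 0.5, 2 as a mean over clusters, 7 with free RNA subtracted by Col1a1 and 9 at 1.5-fold. Klf9 in B cell-like cells turned to -0.35 in cells thinned to 1000 UMIs and to -0.037 with free RNA subtracted by Prg4. The Col1a1 share gave no value for 4 pairs in B cell-like cells. Of 375 recomputed values of the 30 pairs past the fold, in 15 settings, 373 kept their sign and 335 stayed past the fold. Of all 1067 recomputed values, 649 lay within the counting interval of the main value. Another 416 lay outside it, and 2 were the turned values of Klf9, so the spread over settings often exceeded counting error. Turned values were set apart only for the 30 pairs past the fold, and other pairs changed sign too. Zbtb16 in neutrophil-like cells, at 0.18, was below 0 in 10 of 14 settings, and Tsc22d3 in T cell-like cells, at -0.01, was above 0 in 8 of 15. Median-of-ratios scaling shifted classes by -0.23 to 0.28 on the log2 scale. Both subtractions of free RNA, the leaving out of cluster 19 and a minimum of 50 cells were chosen after seeing the data. No paired analysis was possible because each group was 1 library. Counting error limits Zbtb16 in macrophage-like cells and Fkbp5 and Sgk1 in B cell-like cells, with 9 and 48, 13 and 46 and 23 and 107 UMIs. Library, animals, hour and suspension cannot be told apart.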

Other observations

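Smaller classes, outside the comparison, showed where the metallothionein pattern did and did not extend. Adipocyte-like cells (17 and 65 cells), the fat cells in which both genes are abundant, held Mt1 at 18180.3 and 16872 CPM and Mt2 at 5780.4 and 4939 CPM, log2 ratios of -0.11 (-0.15 to -0.06) and -0.23 (-0.31 to -0.14), the reverse of the 10 compared classes. Blood endothelial cell-like cells (87 and 168) held Mt1 at 326 and 1997 CPM, Tsc22d3 at 98.7 and 209.6 CPM, Klf9 at 228 and 459 CPM and Per1 at 64.1 and 29.9 CPM. Lymphatic endothelial cell-like cells (12 and 152) held Mt1 at 225 and 2195 CPM and Sgk1 at 1346 and 581 CPM. Sheath or lining fibroblast-like cells (82 and 1208), which coat the gliding surface of tendon, held Fkbp5 at 25.8 and 49.9 CPM and Tsc22d3 at 110.1 and 191 CPM, both larger ratios (0.96 and 0.79) than in fibroblast-like cells (0.11 and 0.34), a difference that was not tested.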
